A study of Mus musculus with 3 samples.

Results

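Macrophages that carried RNA of several genes of a set around Arg1, Prg4 and Serpinb2 were rare in the infarcted neonatal mouse heart. The cells described here, called members, were chosen by their own RNA counts: a filtered cell was kept when at least 4 of 7 genes were detected in it, namely Arg1, Prg4, Serpinb2, Olr1, Slc7a2, Marco and Cxcl3. Detected means at least 1 UMI, a unique molecular identifier that marks 1 captured RNA molecule. Members numbered 62 of 10550 filtered cells (0.588%). They comprised 1 of 2352 cells in P10-sham_vehicle, 37 of 3454 cells in P10-MI_vehicle and 24 of 4744 cells in P10-MI_SB225002. All 3 libraries came from wild-type C57BL/6 mice 13 days of age, 3 days after surgery at postnatal day 10. Myocardial infarction (MI) was made by tying off the left anterior descending artery, and sham hearts had the same operation without ligation. SB225002, an antagonist of the chemokine receptor CXCR2, or its vehicle (DMSO, PEG300 and Tween 80 in PBS) was injected into the peritoneum each day. Live CD45+ F4/80+ cells were sorted after collagenase digestion of the infarct and border zones, several hearts were pooled per library, and the sex of the pups was not determined. Each condition was 1 library, so no test between conditions was possible. Intervals in brackets are exact 95% intervals that cover counting error only, not variation between cells or hearts.

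Arg1 encodes arginase 1, which splits arginine into ornithine and urea, and Slc7a2 encodes a cationic amino acid transporter that brings arginine into the cell. Serpinb2 is an inhibitor of plasminogen activators, Prg4 (lubricin) is a lubricating glycoprotein of joint and serosal surfaces, Olr1 and Marco are scavenger receptors, and Cxcl3 is a neutrophil-attracting ligand of CXCR2. In the heart, resident macrophages are rich in complement C1q and in genes such as Lyve1, Folr2 and Timd4, while monocytes that enter an infarct pass through short-lived inflammatory states. Macrophages of the serous cavities, including the pericardial space, are known to depend on the transcription factor GATA6 and to carry Prg4, Alox15, Icam2, Selp and coagulation factor V.

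Promoters of 4 of the 7 rule genes were in the RefSeq promoter table (GRCm38.p6, the assembly the labels name as mm10), with 2 starts listed for Serpinb2. The 250 bases before the start are shown for the 3 genes whose window held a searched motif, since these genes were the ones that differed most in level between the members of the MI libraries. Capitals mark matches to TGANTCA (AP-1), TTGCNNAAT (C/EBP), ACGTG (the core that HIF and E-box factors read) or GATAA (GATA), searched on both strands. The sequences run 5′ to 3′ on the gene's strand. Serpinb2 lies at chr1:107511173-107511422 on the plus strand, Olr1 at chr6:129507166-129507415 on the minus strand and Cxcl3 at chr5:90785851-90786100 on the plus strand.
Serpinb2: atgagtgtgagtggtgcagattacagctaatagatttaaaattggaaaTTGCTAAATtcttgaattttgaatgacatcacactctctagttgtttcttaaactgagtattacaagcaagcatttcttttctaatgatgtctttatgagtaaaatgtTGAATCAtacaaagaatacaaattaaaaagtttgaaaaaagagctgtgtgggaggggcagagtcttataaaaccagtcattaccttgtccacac
Olr1: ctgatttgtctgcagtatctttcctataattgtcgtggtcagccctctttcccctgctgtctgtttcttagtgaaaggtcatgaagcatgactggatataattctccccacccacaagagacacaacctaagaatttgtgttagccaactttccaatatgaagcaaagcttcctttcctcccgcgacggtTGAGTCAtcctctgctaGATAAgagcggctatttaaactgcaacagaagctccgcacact
Cxcl3: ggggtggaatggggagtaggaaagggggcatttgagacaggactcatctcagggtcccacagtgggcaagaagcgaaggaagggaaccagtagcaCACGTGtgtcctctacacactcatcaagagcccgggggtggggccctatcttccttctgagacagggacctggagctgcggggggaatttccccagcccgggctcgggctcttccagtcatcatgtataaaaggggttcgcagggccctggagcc
The Serpinb2 window held an AP-1 match beginning 94 bases before the start and a C/EBP match 202 bases before it. The Olr1 window held an AP-1 match 60 bases and a GATA match 43 bases before the start. In Cxcl3 the matches to ACGTG on the plus and minus strands overlapped, so the capitals cover both. The second Serpinb2 start had an AP-1 match at 181 and a GATA match at 40 bases, and the Marco window held none of the letters searched. Among 32851 promoters of the same length, 6.75% held TGANTCA, 2.11% TTGCNNAAT, 16.6% ACGTG and 22.6% GATAA, so each match is a description and not a binding site. Arg1, Prg4 and Slc7a2 were not in the promoter table.

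The libraries held 29323567 to 34235864 UMIs over 3390 to 5783 barcodes. Filtered cells had a median of 8520 UMIs in sham, 6400 in P10-MI_vehicle and 5654 in P10-MI_SB225002. Members were deeper than the cells around them. Their median was 14050 UMIs in P10-MI_vehicle, with a range of 2869 to 28247, and 10016.5 UMIs in P10-MI_SB225002, with a range of 3075 to 17771. A rule that counts detected genes is easier to pass in a deep cell. The mitochondrial share of members was 2.71% and 2.80% in the MI libraries, against 4.36% and 3.45% of filtered cells. No doublet caller was run, so doublets are judged here only from depth and from genes of other lineages. Filtered cells of P10-MI_vehicle and P10-MI_SB225002, 3454 and 4744 in number, shared 1356 barcodes, and sham shared 786 and 842 with them. No barcode was a member in more than 1 library, but members were too few for this to be informative. The barcodes of 19 of 37 P10-MI_vehicle members also occurred in P10-MI_SB225002, and those of 8 of 24 members in the reverse direction.

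The label Arg1+ Prg4+ Serpinb2+ held for a minority of the members. Arg1, Prg4 and Serpinb2 were all detected in 9 of 37 members of P10-MI_vehicle (24.3%), in 7 of 24 of P10-MI_SB225002 (29.2%) and in the sham member. Arg1 was detected together with Slc7a2 in 30 of 37 and in 22 of 24 members, and together with Olr1 in 32 of 37 and in 9 of 24. Members are therefore named below by the rule and by their leading genes. As macrophages they passed: Lyz2 was detected in all 37 and all 24, Csf1r in 35 and 23, Itgam in 36 and 23, and Adgre1, which encodes the sorted antigen F4/80, in 25 of 37 (67.6%) and 24 of 24. Among genes of other cell types, the neutrophil list summed to 1945 and 2073 CPM (UMIs per 1000000 UMIs of the class) in members, against 9502 and 9250 CPM in other C1q-high macrophages, and Ly6g and Cxcr2 had no UMI in members. The 10 mesothelial and the T and NK cell genes had no UMI, and B cell genes had 2 and 4. Fibroblast genes had 278 UMIs in P10-MI_vehicle and 14 in P10-MI_SB225002. In P10-MI_vehicle 1 member carried at least 3 fibroblast genes and 1 other at least 3 endothelial genes. No member of the other libraries did.

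The 7 rule genes were present in different combinations in the MI libraries. These values chose the members, so they are given as a description. In P10-MI_vehicle 13 members had 4 rule genes, 12 had 5, 9 had 6 and 3 had all 7. In P10-MI_SB225002 19 members had 4, 5 had 5 and none had more. Arg1 was the most abundant rule gene in both, at 0 to 287 UMIs per member with a median of 55 in P10-MI_vehicle, and at up to 255 UMIs with a median of 57.5 in P10-MI_SB225002. Its summed level was 5713 CPM and 7146 CPM. Slc7a2 was also near equal, at 662 and 625 CPM, and was detected in 32 of 37 and 22 of 24 members. Marco was detected in 23 and 16 members at 560 and 1100 CPM. The other 4 genes were higher in P10-MI_vehicle members. Cxcl3 was at 1613 CPM against 57.2 CPM and was detected in 23 of 37 members against 6 of 24. Serpinb2 was at 914 CPM in 26 members against 123 CPM in 10 members. Olr1 was at 618 CPM in 33 members against 79.2 CPM in 9 members. Prg4 was at 502 CPM against 198 CPM, but was detected in 15 members of each library. The sham member had 9 UMIs of Arg1, 36 of Prg4, 19 of Serpinb2 and 1 of Marco.

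**Figure D1:**
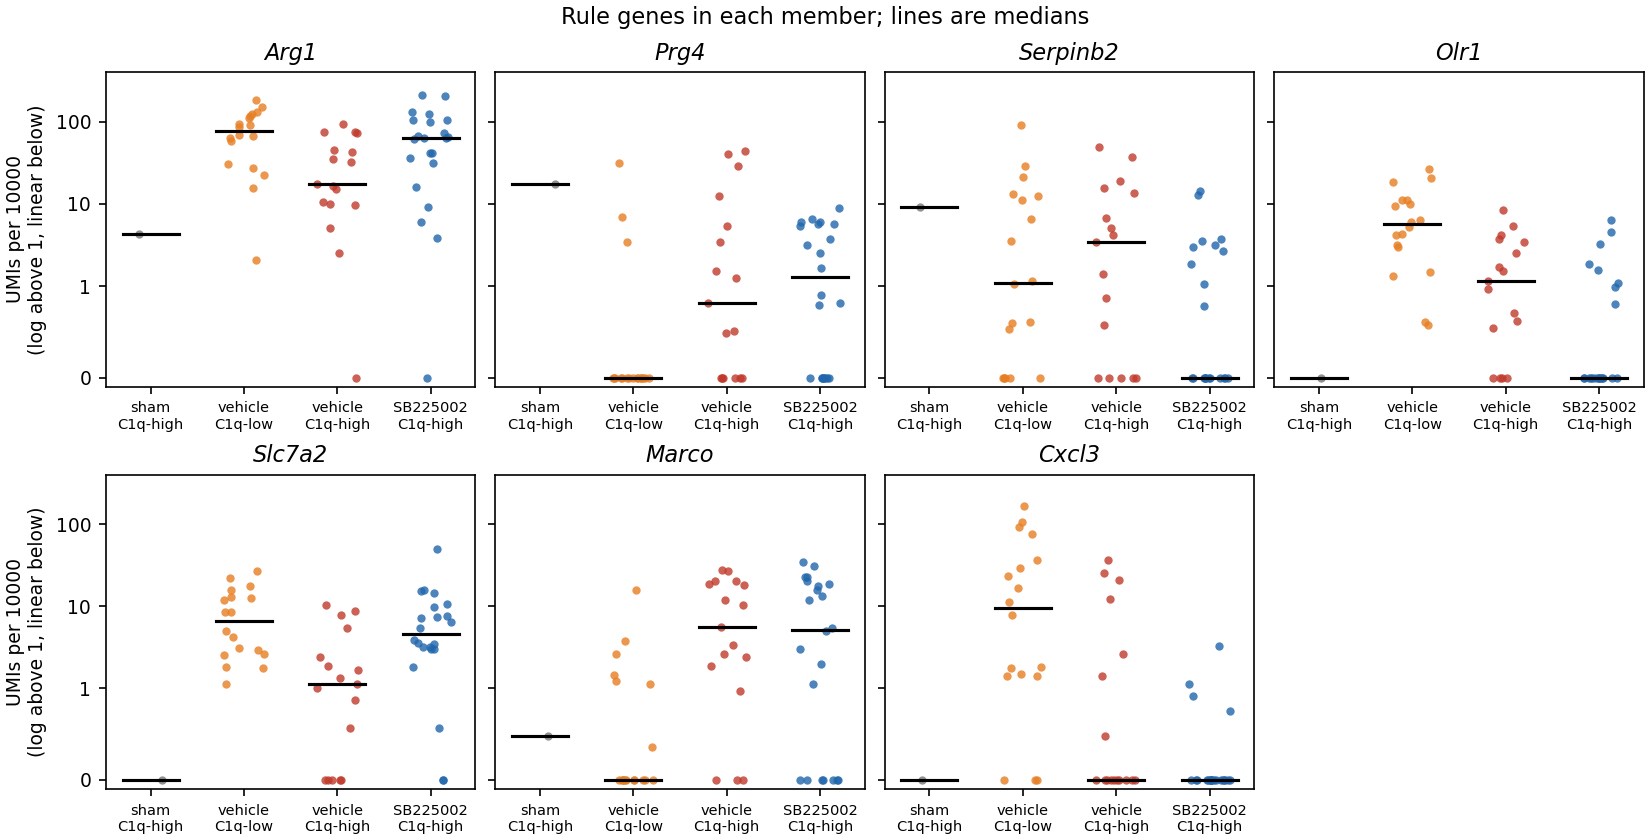
Each point is 1 member and each panel 1 rule gene, with UMIs per 10000 of that cell on the y axis (logarithmic above 1, linear below) and lines at the group medians. Groups are the sham member, the 18 C1q-low and 17 C1q-high members of P10-MI_vehicle and the 22 C1q-high members of P10-MI_SB225002, and 4 members with middle C1q are not drawn. Arg1 is high in all groups of the MI libraries, whereas Cxcl3 is at 0 in most P10-MI_SB225002 members.

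Members held different shares of the RNA of the rule genes. In P10-MI_vehicle they held 96.8% of all Serpinb2 UMIs of the filtered cells, 88.1% of Cxcl3, 78.7% of Prg4, 63.5% of Slc7a2, 54.3% of Olr1, 44.6% of Arg1 and 35.2% of Marco. In P10-MI_SB225002 they held 71.8% of Serpinb2, 49.5% of Prg4, 31.3% of Slc7a2, 16.9% of Marco, 10.8% of Arg1, 8.41% of Olr1 and 4.96% of Cxcl3. Only Serpinb2 was held mostly by members in both libraries. Arg1 was detected in 11.7% of other C1q-high macrophages of P10-MI_vehicle and in 31.6% of P10-MI_SB225002. B cells, which should lack Arg1, had it in 5.45% and 8.82% of cells at median depths of 3576 and 2092.5 UMIs. Whether free RNA or doublets put it there was not tested. Serpinb2 and Prg4 were each detected in 0.280% of other C1q-high macrophages of P10-MI_vehicle and in no B cell. Cells just under the limit, with 3 rule genes, numbered 1, 26 and 58 in sham, P10-MI_vehicle and P10-MI_SB225002. Their median depths were 10323, 13798 and 10894 UMIs, against 20744, 7908 and 9983 UMIs in members with exactly 4. Arg1 was detected in 25 of the 26 and 55 of the 58, Prg4 in 3 and 2, and Serpinb2 in none.

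Members made up 1.07% (0.755 to 1.47) of filtered cells in P10-MI_vehicle and 0.506% (0.324 to 0.752) in P10-MI_SB225002. In sham the share was 0.0425% (0.00108 to 0.237). The share was lower by 0.565 percentage points in P10-MI_SB225002 than in P10-MI_vehicle, with a difference of -0.565 (-1.01 to -0.165). P10-MI_vehicle exceeded sham by 1.03 percentage points (0.658 to 1.43). Since depth differed, each cell was also thinned to 2000 UMIs. Then 16 cells passed the rule in P10-MI_vehicle (0.518%, 0.296 to 0.840), 7 in P10-MI_SB225002 (0.171%, 0.0687 to 0.352) and none of 2241 cells in sham. Cells left out as too shallow numbered 111, 366 and 645. The order of the MI libraries was the same with and without thinning. At a limit of 3 rule genes the shares were 1.82% and 1.73%, a difference of -0.0955 points, so the difference between libraries depended on the number of rule genes required.

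The members of P10-MI_vehicle fell into groups by complement C1q, the secreted recognition protein of the classical complement pathway and a mark of resident macrophages. Summed C1qa, C1qb and C1qc ran from 0 to 75.03 per 10000 UMIs in P10-MI_vehicle, with a median of 12.8. In P10-MI_SB225002 they ran from 15.6 to 206, with a median of 86.7, and the sham member had 41.5. Limits of 10 and 30 per 10000, set after these values were seen, divided the P10-MI_vehicle members into 18 C1q-low, 2 middle and 17 C1q-high cells. The highest C1q-low cell was at 7.44 and the lowest C1q-high cell at 31.4. The sparse middle was not particular to members. Of all 3454 filtered cells of P10-MI_vehicle, 784 were under 10 and 2513 at 30 or more, so few lay between. In P10-MI_SB225002 22 members were C1q-high, 2 were middle and none was C1q-low. C1q-low members made up 0.521% (0.309 to 0.822) of filtered cells in P10-MI_vehicle. In P10-MI_SB225002 0 of 4744 cells allows a share of up to 0.0632% by a floor of 3 counts and of up to 0.0777% by the exact interval, and the difference was -0.521 points (-0.822 to -0.295). C1q-high members made up 0.492% (0.287 to 0.787) and 0.464% (0.291 to 0.701), a difference of -0.0284 points (-0.370 to 0.285). Counted apart, the C1q-low cells thus made up most of the difference of -0.565 points in all members. Cells with little C1q were present in every library, at 193, 784 and 1141 filtered cells in sham, P10-MI_vehicle and P10-MI_SB225002, of which 0, 33 and 4 had at least 3 rule genes. With at least 2 rule genes the counts were 1, 72 and 53. C1q-high cells went the other way under looser limits. With at least 3 rule genes they numbered 26 in P10-MI_vehicle (0.753%, 0.492 to 1.10) and 70 in P10-MI_SB225002 (1.48%, 1.15 to 1.86), and with at least 2 they numbered 84 (2.43%, 1.94 to 3.00) and 265 (5.59%, 4.95 to 6.28). The like shares of C1q-high members thus held at 4 rule genes and not at 3 or 2. C1q-low and C1q-high members of P10-MI_vehicle had median depths of 15947.5 and 14050 UMIs.

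**Figure D2:**
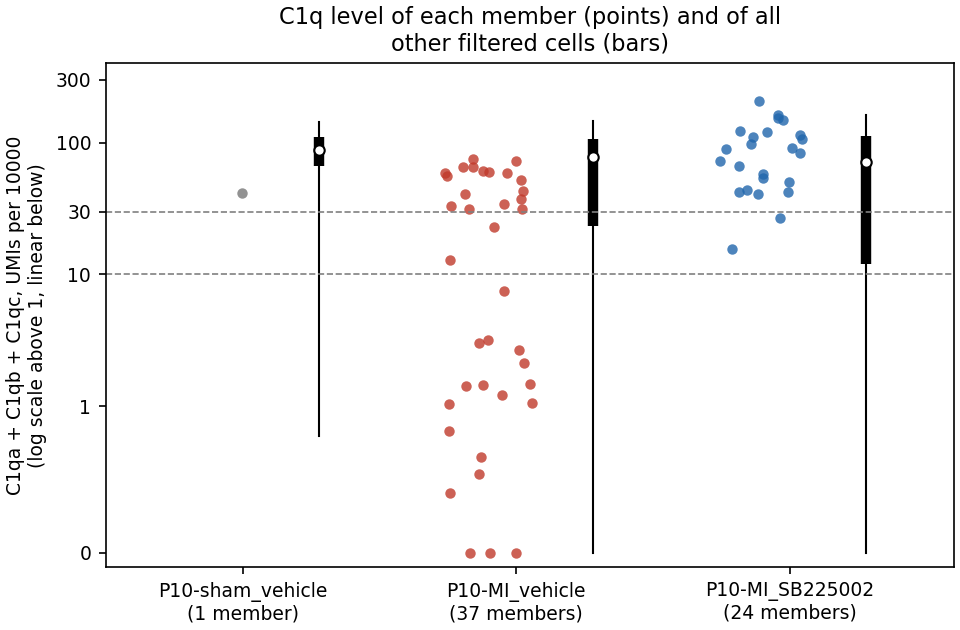
Points show C1qa, C1qb and C1qc summed per 10000 UMIs for each member in sham, P10-MI_vehicle and P10-MI_SB225002. Bars beside them give the 5th to 95th (thin) and 25th to 75th (thick) percentiles of the other filtered cells with the median in white, and dashed lines mark 10 and 30. The P10-MI_vehicle members leave a gap between 7.44 and 31.4 that holds 2 cells, and no P10-MI_SB225002 member lies under 15.6.

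Members were next set beside other C1q-high macrophages, cells with at least 30 C1q UMIs per 10000 that were not members, 2496 in P10-MI_vehicle and 3239 in P10-MI_SB225002. Values are CPM of summed UMIs, and ratios are log2 of members over other C1q-high macrophages, P10-MI_vehicle first. A gene was called when it was at least 2-fold apart in both MI libraries with both counting intervals on 1 side of 0. Of 12616 genes with at least 20 UMIs over both sums in each MI library, 218 were higher (1.73%) and 248 lower (1.97%). The 20 UMIs could lie in the much larger comparison sum. Only 4849 genes had at least 20 UMIs in the members of both libraries together and UMIs in every sum. Many tested genes thus had few UMIs in members and were hard to call, which lowers these percentages. Called on mean log-normalized values per cell, 38 were higher and 15 lower. The median ratio of all genes was -0.41 and -0.23. With sums of 0 UMIs set to 3 counts it was -0.18 and 0.13, so its sign in P10-MI_SB225002 depended on the zeros. With DESeq2 size factors the calls were 251 higher and 187 lower, so that 57.3% of calls were higher in place of 46.8%. The rule genes were left out of these counts. Because members were selected on RNA of the same cells, the ratios below describe them and are no test.

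Genes known from macrophages of the serous cavities were mostly higher. Of 13 tested, 9 were higher and 1 lower, with medians of 4.28 and 3.96. Gata6, the transcription factor of cavity macrophages, was at 22 and 17.6 CPM in members against 1.13 and 1.04 CPM, ratios of 4.28 and 4.09. These ratios rest on few UMIs, and most members had no Gata6. In P10-MI_vehicle members with Prg4 held 8 Gata6 UMIs and those without Prg4 held 3. In P10-MI_SB225002 the counts were 3 and 1. Icam2, an adhesion ligand for leukocyte integrins, was at 124 and 119 CPM against 5.07 and 12.1 CPM (4.61 and 3.30). F5, coagulation factor V, was at 100 and 79.2 CPM against 4.26 and 5.09 CPM (4.55 and 3.96). Selp, which encodes P-selectin, and Ltbp1, which holds latent TGF-beta in the matrix, had ratios of 6.12 and 5.80, and of 5.68 and 6.84. Slpi, an inhibitor of neutrophil elastase, was at 676 and 981 CPM against 28.3 and 57.7 CPM (4.58 and 4.09). Padi4 (3.03 and 4.63) and Lrg1 (2.80 and 1.82) were higher too. Cd93 was the gene that was lower, at 34.0 and 44.0 CPM against 100 and 120 CPM (-1.56 and -1.45). Alox15, a lipoxygenase that oxidises arachidonic acid, had too few UMIs in P10-MI_vehicle to be counted. It had 9 UMIs in members against 1 UMI in all other C1q-high macrophages there, a ratio of 8.38 (5.53 to 13.84), and 68 against 11 UMIs in P10-MI_SB225002, a ratio of 9.24 (8.31 to 10.31).

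Saa3, an acute-phase serum amyloid, was the most abundant of the higher genes, at 33026 and 5386 CPM in members against 364 and 86.4 CPM (6.50 and 5.96), and at 25694 CPM in the sham member. It was kept out of the rule because its free RNA differed between the libraries, and 12.7% and 5.88% of B cells held it, against 94.6% and 91.7% of members. Other genes at the top of the ranking were Fabp7, a fatty acid binding protein (6.57 and 4.64), Ms4a8a, a membrane-spanning protein of the CD20 family (5.15 and 3.85), Bhlhe40, a transcriptional repressor (4.60 and 3.48), and AA467197 (6.75 and 2.95). Cd5l, a secreted macrophage protein, was at 110 and 255 CPM against 7.60 and 8.24 CPM (3.86 and 4.95). The ranking used the smaller of the ratios in the MI libraries, so being higher in both followed from the choice.

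Coagulation and matrix genes were also higher than in other C1q-high macrophages. Of 11 coagulation and plasminogen genes tested, 6 were higher and 1 lower, with medians of 3.45 and 1.64. F10, the clotting factor that forms thrombin with factor V, was at 276 and 198 CPM against 13.8 and 30.6 CPM (4.32 and 2.70). F7 (3.44 and 1.81) and Plaur, the urokinase receptor (3.45 and 1.64), were higher, and F13a1, the subunit that cross-links fibrin, was lower at 410 and 282 CPM against 1962 and 902 CPM (-2.26 and -1.68). Of 14 matrix genes, 4 were higher and none lower. Fn1, fibronectin, was detected in all 37 and all 24 members, at 7353 and 6521 CPM against 305 and 1106 CPM (4.59, 4.53 to 4.65, and 2.56, 2.48 to 2.64). Thbs1, thrombospondin 1, was at 910 and 722 CPM against 24.7 and 108 CPM (5.20 and 2.74). Ecm1 (3.11 and 2.41) and Emilin2 (2.68 and 2.22) were the other matrix genes. Tgm2, a transglutaminase that cross-links proteins, was at 1695 and 365 CPM (6.51 and 2.96), and Timp1, an inhibitor of metalloproteinases, was at 722 and 132 CPM (5.98 and 2.52). Of 12 protease genes, Timp1 and Mmp19 were higher, though 81.2% of the Mmp19 UMIs of P10-MI_SB225002 lay in 1 cell, and Mmp8 was lower. Coagulation genes summed to 6251 and 2755 CPM in members, 2677 and 3367 in Ly6c-high monocytes and 2167 and 2213 in Gpnmb Spp1 macrophages. Matrix genes summed to 16512 and 16479, 8545 and 13841, and 25884 and 35356 CPM in the same order. The matrix list holds Spp1, which also gates the last class. Against Ly6c-high monocytes of P10-MI_SB225002, F10 was at -0.61.

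Of 19 glycolysis and hypoxia genes tested, 10 were higher and none lower, with medians of 1.79 and 1.10. Slc2a1, the glucose transporter GLUT1, was at 208 and 66.0 CPM (3.56 and 1.32), Hk2, which phosphorylates glucose, had ratios of 1.79 and 1.89, and Aldoa, which splits fructose bisphosphate, was at 1287 and 1751 CPM against 415 and 661 CPM (1.63 and 1.40). Slc16a3, the lactate exporter, was detected in 32 of 37 and 19 of 24 members (3.46 and 1.83). Egln3, an oxygen-sensing prolyl hydroxylase (3.66 and 3.03), and Hilpda, a lipid droplet protein (4.44 and 1.81), belong to the same list, as do Pfkl, Bnip3, Ero1l and Ankrd37. Among transcription factors, 4 of 19 were higher and 1 lower: Cebpb was at 1807 and 981 CPM against 299 and 421 CPM (2.59 and 1.22), Nr4a1 had ratios of 2.01 and 1.10, and Bhlhe40 and Gata6 are given above. Maf, a factor of resident macrophages, was lower at 262 and 150 CPM against 1272 and 588 CPM (-2.28 and -1.98).

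Genes of resident macrophages went the other way in part. Of 15 tested, 7 were lower and 1 higher, with medians of -2.03 and -0.28. Mrc1, the mannose receptor CD206, was at 96.0 and 295 CPM against 1762 and 1079 CPM (-4.20 and -1.87). Fcrls, an Fc receptor-like protein, was at 22 and 39.6 CPM against 569 and 556 CPM (-4.69 and -3.81), and Cbr2, a carbonyl reductase, at 88.0 and 44.0 CPM against 595 and 318 CPM (-2.76 and -2.85). Hpgd, which degrades prostaglandins, had 2 and 3 UMIs in members (-5.45, -8.50 to -3.60, and -3.04, -5.32 to -1.49). Cd163, Cx3cr1 and Gas6 completed the lower genes. Timd4, a receptor for phosphatidylserine on apoptotic cells, was the exception, at 88.0 and 101 CPM against 15.7 and 12.2 CPM (2.48 and 3.06). Of 9 neutrophil genes, 8 were lower. Camp had 1 and 0 UMIs in members (ratio -6.04 in P10-MI_vehicle and at least 11.6-fold lower in P10-MI_SB225002), Ngp had 2 and 0 UMIs (-5.69 and at least 13.8-fold lower), and Retnlg, the third neutrophil gene among the 10 lowest ratios, was at -5.36 and -5.03. Hpgds (-3.08 and -2.98), BC100530 (-5.58 and -4.60), Stfa2 (-3.35 and -5.01) and Stfa2l1 (-2.87 and -2.64) were also among the lowest. BC100530 and the stefin genes have near-identical copies that share reads, so their values are uncertain. When cells with 3 rule genes were included, the ratio in P10-MI_SB225002 turned positive for Camp (1.02), Ngp (0.88), Retnlg (0.12), BC100530 (0.78), Stfa2 (0.18) and Stfa2l1 (0.52). Neutrophil RNA can reach any droplet as free RNA, and its part in these differences was not tested. Antigen presentation genes were low as well, with 4 of 7 class II genes lower and Cd74, the invariant chain, at 10 and 57.2 CPM against 223 and 234 CPM (-4.48 and -2.03).

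Inflammatory genes were less alike in the MI libraries. Of 13 cytokine genes, 3 were higher and 1 lower, with medians of 2.77 and 0.51. Il1b was at 730 and 92.4 CPM against 12.4 and 30.2 CPM (5.87 and 1.62), but 90.5% of its UMIs in P10-MI_SB225002 lay in 1 member. Il1a was at 350 and 13.2 CPM, the latter from 3 UMIs (8.42 and 3.55), and Socs3, a brake on cytokine signalling, was at 398 and 216 CPM (1.74 and 1.29). Of 14 chemokine genes, 3 were higher, Cxcl2 (1565 and 444 CPM against 189 and 114 CPM, 3.05 and 1.96), Ccl6 (1.43 and 2.25) and Ccl24 (2.19 and 3.14), and 3 were lower, Cxcl16, Ccl8 and Ppbp. Among scavenger receptors 3 of 10 were higher, Msr1 (1.36 and 1.62), Clec7a (1.25 and 2.09) and Cd5l, and 3 lower, Cd163, Mrc1 and Stab1. Itgam, the integrin CD11b, was the macrophage gene of 10 that was higher, at 1044 and 735 CPM against 192 and 187 CPM (2.45 and 1.98). In the remaining lists few genes were called. Ass1, which remakes arginine from citrulline (4.47 and 1.99), was higher among 10 arginine genes, Slc7a11, the cystine importer (6.34 and 1.92), among 11 NRF2 targets, and Hbegf (4.21 and 3.67) among 12 growth factors, where Gas6 was lower. Ly6c2 and F13a1 were lower of 11 Ly6c-high monocyte genes, Ifit3 of 12 interferon genes, 4 of 13 cell cycle genes, 3 of 6 B cell genes, 2 of 6 cardiomyocyte genes and Xist of 5 sex-linked genes. None was called among 12 Gpnmb Spp1 macrophage genes, 13 lipid, 11 immediate early, 7 fibroblast, 8 endothelial, 3 mural, 3 erythroid or 3 T and NK cell genes.

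**Figure D3:**
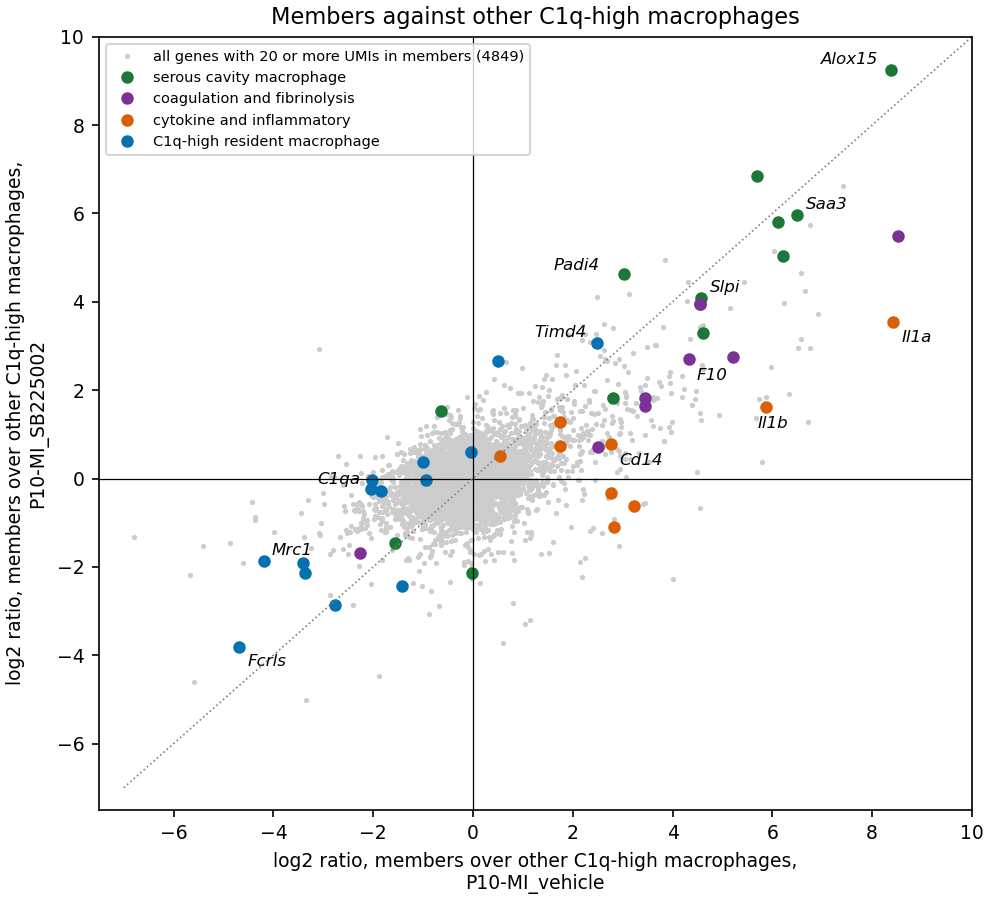
Each point is a gene with at least 20 UMIs in members, 4849 in all, with the log2 ratio of members over other C1q-high macrophages in P10-MI_vehicle on the x axis and in P10-MI_SB225002 on the y axis. The cavity (green) and coagulation (purple) genes lie mostly at the upper right, the resident genes (blue) mostly at the lower left, and the cytokine genes (orange) mostly under the dotted diagonal, higher in P10-MI_vehicle than in P10-MI_SB225002.

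Since the C1q-low members were found in 1 library, the comparison was repeated with the C1q-high members alone, 17 and 22 cells. Of 12596 genes, 183 were higher (1.45%) and 168 lower (1.33%). The cavity list had 8 higher and 1 lower of 12, with medians of 4.09 and 3.65, and the coagulation list 6 higher and 1 lower of 11, with medians of 2.77 and 1.5. Glycolysis and hypoxia genes had 9 higher and none lower. Resident genes had 2 higher, Timd4 and Vsig4, and 6 lower. For cytokines the count was 1 higher and none lower, and cell cycle genes had none in either direction. Fabp7 had ratios of 6.79 and 4.47, Ltbp1 of 6.29 and 6.90 and Padi4 of 4.14 and 4.74. Il1b was at 5.02 in P10-MI_vehicle and -1.67 (-4.71 to 0.19) in P10-MI_SB225002.

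Within P10-MI_vehicle the C1q-low and C1q-high members had different genes beside a core of genes with like sums. Among 3472 genes with at least 20 UMIs in the pair, 171 were higher in C1q-low members (4.93%) and 293 lower (8.44%), with a median of -0.06. Values are C1q-low then C1q-high, in CPM. The core included Saa3 (34796 and 31442), Fn1 (7280 and 7354), Cebpb (1968 and 1534), Itgam (1025 and 1053) and Cd14 (1371 and 1616), each less than 2-fold apart. Fabp7 and Ms4a8a were also less than 2-fold apart (-0.43 and 0.49 on the log2 scale). These are sums over cells, and Saa3 was uneven between cells. Among C1q-low members Saa3 ran from 0 to 1580 per 10000 UMIs, with the next highest cell at 1532. Among C1q-high members Saa3 ran from 0.485 to 1145.

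Cytokine genes were higher in the C1q-low members, with 4 of 12 higher and none lower. Il1b was at 1021 and 403 CPM, a log2 ratio of 1.34 (0.99 to 1.70), Il1a at 531 and 142 CPM (1.90), and Il1rn, the interleukin 1 receptor antagonist, at 417 and 36.6 CPM (3.51). Il1b was uneven between cells. The highest C1q-low members were at 50.3, 48.1 and 42.6 per 10000 UMIs and the next at 11.4, while C1q-high members ran from 0 to 31.1. Il6 had 49 UMIs against 0, at least 13.1-fold higher, from 5 cells with 44.9% of the UMIs in 1. The highest Il6 levels, 32.5 and 8.97 per 10000 UMIs, were in the C1q-low members with the highest Il1b. Nos2, the inducible nitric oxide synthase that competes with arginase for arginine, had 58 UMIs against 3 (3.96, 2.34 to 6.28), and Ass1 was at 136 and 9.16 CPM (3.90). Nos2 was detected in 7 of 18 C1q-low members. The neutrophil genes moved with this difference, at a summed 3140 CPM in C1q-low and 531 CPM in C1q-high members, of which S100a8 made up 3030 and 430 CPM (2.82), and their part in it was not tested. Slc7a11 had 61 UMIs against 0, at least 16.4-fold higher, from 13 of 18 cells. Timp1 was at 1268 and 77.8 CPM (4.03), and Vcan, a matrix proteoglycan of monocytes, at 383 and 41.2 CPM (3.22). Hp, haptoglobin, was at 1338 and 412 CPM (1.70), Hif1a at 339 and 114 CPM (1.57), and Upp1, a uridine phosphorylase, at 324 and 68.7 CPM (2.24). AA467197 was at 5385 and 1099 CPM (2.29) and Klk9 at 225 and 9.16 CPM (4.62). Spp1, osteopontin, was at 4622 and 1053 CPM (2.13), with B cells of the same library at 2206 CPM as background. Matrix genes had 4 of 14 higher (Spp1, Vcan, Sdc1 and Sdc4), and glycolysis genes 4 of 17 (Slc2a1, Pfkp, Pgam1 and Ero1l). The fibroblast genes were 4 of 4 higher, through the 1 member with fibroblast genes.

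Macrophage and resident genes were lower in the C1q-low members. The split used C1q, so lower levels of genes that go with C1q are a description. Of 8 resident genes, 7 were lower, Cd163 at 0 against 32 UMIs (at least 13.3-fold lower) and Timd4 at 1 against 42 UMIs (-5.71, -11.04 to -3.15), with Lyve1, Folr2, Mrc1, Cbr2 and Cx3cr1. Apoe, the apolipoprotein of lipid export, was at 372 and 6022 CPM (-4.02), and Cd5l at 0 against 47 UMIs (at least 19.5-fold lower). Lyz2 was at 3181 and 9007 CPM (-1.50), and Adgre1, Cd68 and Mertk were lower. Cavity genes had none of 8 higher and 4 lower: Icam2 at 22.1 and 247 CPM (-3.48), F5, Lrg1 (-1.58) and Ednrb (-4.07). The monocyte genes were mixed, with Vcan and Hp higher and Ccr2 (2 against 20 UMIs) and Plac8 (1 against 41 UMIs, 65.9% of them in 1 cell) lower. Ly6c2, the defining gene of Ly6c-high monocytes, had no UMI in C1q-low members, and no member passed the gate for these monocytes. Rule genes also combined differently. Olr1 with Cxcl3 was detected in 15 of 18 C1q-low members, and Arg1, Prg4 and Serpinb2 together in 3 of 18, against 6 of 17 C1q-high members of P10-MI_vehicle and 7 of 22 of P10-MI_SB225002.

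**Figure D4:**
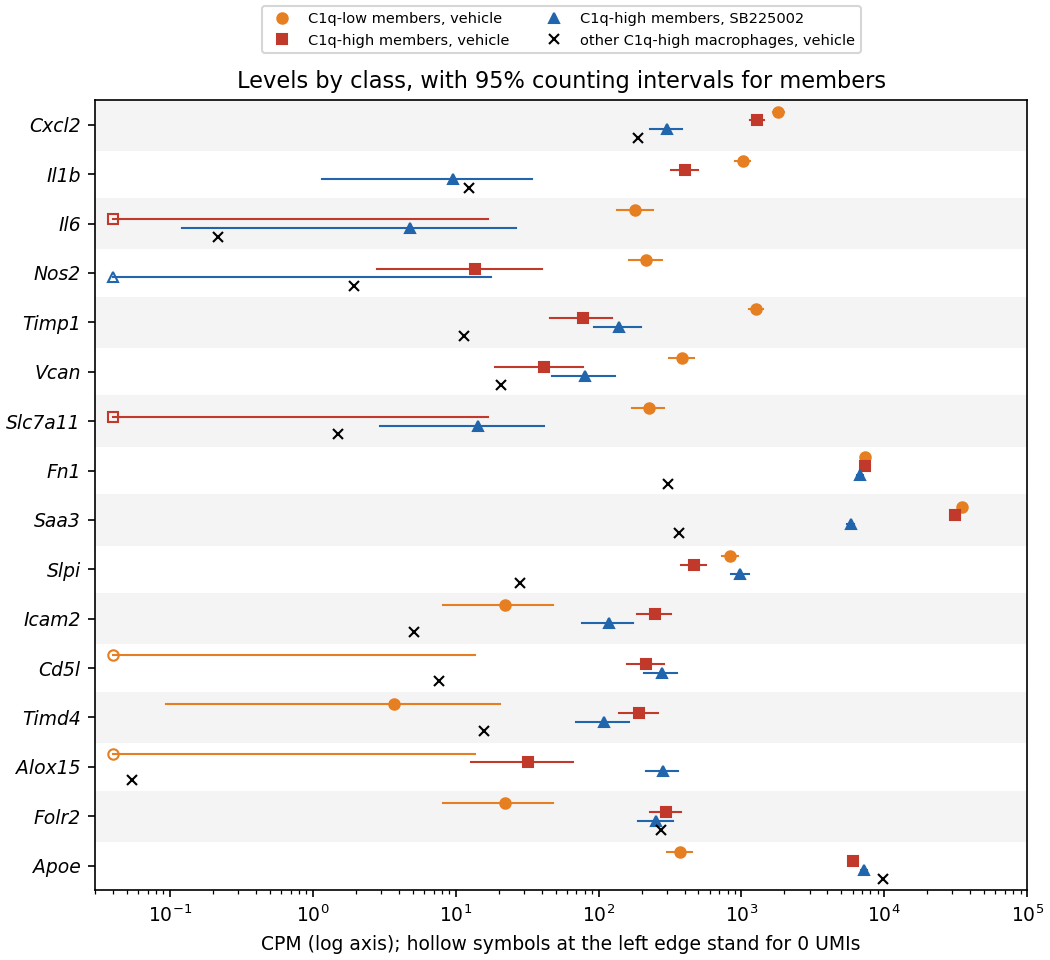
CPM on a logarithmic axis for 16 genes in C1q-low (orange circles) and C1q-high (red squares) members of P10-MI_vehicle, C1q-high members of P10-MI_SB225002 (blue triangles) and other C1q-high macrophages of P10-MI_vehicle (crosses). Lines are 95% counting intervals and hollow marks at the left edge are 0 UMIs. Fn1 is at a like level in the 3 groups of members, 7280 and 7354 CPM in P10-MI_vehicle, Il6 and Slc7a11 are at 0 UMIs in C1q-high members of P10-MI_vehicle, and Cd5l is at 0 UMIs in C1q-low members.

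Members of the MI libraries were then compared with each other, P10-MI_SB225002 over P10-MI_vehicle, with 1 library each and so no replicate check. Of 4871 genes, 383 were higher (7.86%) and 322 lower (6.61%), with a median log2 ratio of 0.10, and on mean log-normalized values per cell 32 were higher and 41 lower. The direction of this balance depended on scaling. TMM scaling gave 224 higher and 449 lower, so that 33.3% of calls were higher in place of 54.3%, and DESeq2 size factors gave 282 and 404 (41.1%). The scalings shifted all ratios by 0.21 and 0.14. Among C1q-high members only, 190 of 3300 genes were higher (5.76%) and 212 lower (6.42%), with a median of 0.05. The libraries also differed in the sex-linked RNA of their pooled pups. Xist was detected in 1 of 37 members of P10-MI_vehicle (2.70%) and 7 of 24 of P10-MI_SB225002 (29.2%), against 26.3% and 40.5% of other C1q-high macrophages, and Ddx3y, a Y-linked gene, in 22 and 4 members. The part that the mix of hearts plays in the differences below was not tested.

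Cytokine genes were lower in P10-MI_SB225002 members, 10 of 12 lower and none higher, and among C1q-high members 8 of 10 lower. The rule itself used the inflammatory chemokine Cxcl3, detected in 23 of 37 members of P10-MI_vehicle and 6 of 24 of P10-MI_SB225002. The part of that choice in the cytokine and chemokine differences was not tested. Il1b had a ratio of -2.98 in all members and of -5.41 (-8.47 to -3.51) in C1q-high members, from 88 against 2 UMIs. Il1a was at -4.73 and -4.90. Tnf had 45 UMIs in P10-MI_vehicle and 0 in P10-MI_SB225002, at least 6.82-fold lower, and 22 against 0 in C1q-high members, at least 7.06-fold lower. Ptgs2, the inducible cyclooxygenase, had 72 against 0 UMIs (at least 10.9-fold lower) and 28 against 0 in C1q-high members (at least 8.99-fold lower). Ptges, which makes prostaglandin E2, was at -6.03 and -5.16, and Acod1, which makes itaconate, at -5.56 and at least 15.4-fold lower. Cd14, the coreceptor for lipopolysaccharide, was at -1.85 in all and at 1616 against 271 CPM (-2.58) in C1q-high members. Chemokines had 7 of 12 lower and 3 higher, and in C1q-high members 4 lower and 1 higher. Ccl3 was at -4.26 and -4.62, Ccl4 at -3.57 and -3.26, and Cxcl2, a CXCR2 ligand, at -1.82 and -2.10. Ccl12, a ligand of CCR2, was higher in both (3.65 and 3.03). Values for C1q-high members rest on limits of C1q set after the data were seen.

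Of the acute-phase and coagulation genes, Saa3 was lower by log2 ratios of -2.62 and -2.44, at 31442 against 5804 CPM in C1q-high members, and Hp by -5.73 and -4.85. Coagulation genes had 3 of 8 lower and none higher, and 4 of 7 lower in C1q-high members. Thbs1 was at -0.34 and -1.02. Fn1 was less than 2-fold apart (-0.17 and -0.13), Tgm2 was at -2.21 and -2.01, and 5 of 18 glycolysis and hypoxia genes were lower with none higher, among them Hilpda (-1.69 and -2.13) and Slc16a3 (-1.08 and -1.01). For other genes the difference lay in the C1q-low cells. Nos2 had 61 against 0 UMIs in all members, at least 9.25-fold lower, but 3 against 0 in C1q-high members. Timp1 was at -2.45 in all and 0.82 (-0.09 to 1.78) in C1q-high members, and Il1rn at -3.20 and -0.62 (-2.58 to 1.17). Car4, a carbonic anhydrase, had 440 against 0 UMIs (at least 66.7-fold lower), from 11 cells of which 1 was C1q-high. Fpr1 (51 against 0 UMIs, at least 7.73-fold lower), Klk9 (63 against 0, at least 9.55-fold lower) and Upp1 (103 against 0, at least 15.6-fold lower) completed the lowest ratios with Dcn, whose 56 UMIs lay to 98.2% in 1 cell.

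Genes higher in P10-MI_SB225002 members included Alox15, at 18 CPM in P10-MI_vehicle and 299 CPM in P10-MI_SB225002 (4.05, 3.05 to 5.24, and 3.13 in C1q-high members). Cavity genes were divided: in C1q-high members Alox15, Ltbp1 (1.17), Slpi and Padi4 (1.29) were higher and Icam2 (-1.06), F5, Lrg1 (-1.25) and Saa3 lower, of 11 tested. Gpnmb Spp1 macrophage genes had 7 of 12 higher and 1 lower, and 3 of 12 higher in C1q-high members, namely Spp1 (1053 against 4830 CPM, 2.20), Trem2, a lipid receptor (1.51), and Lpl, a lipase (1.59). B cells of these libraries held Spp1 at 2206 and 4060 CPM, so its level in C1q-high members was near or below that of cells that should lack it. Igf1, insulin-like growth factor 1, was at 2.48 and 1.58, and Apoc1 had 1 against 29 UMIs (5.99, 3.40 to 11.35). Ccnd1, cyclin D1 (3.62 and 2.86), Syngr1 (3.62 and 2.54), Gatm, the creatine-forming amidinotransferase (2.63 and 1.70), and Ms4a7 (2.61 and 1.76) were also among the highest, with Xist (6.09, 3.51 to 11.44). S100a9 (3.66) and Stfa1 (3.54) ranked high through 1 cell each, which held 94.1% and 91.4% of their UMIs. Resident genes had 5 of 14 higher and 1 lower in all members, but none of 13 higher and 2 lower in C1q-high members. Apoe followed the same course, at 1.25 in all and 0.25 in C1q-high members. In the other lists, read as all members and then C1q-high members, matrix genes had 1 higher and 5 lower of 14, then 2 and 3 of 13. NRF2 targets had 3 higher and 1 lower of 9, then 1 and 0 of 6, and lipid genes 4 and 1 of 11, then 1 and 1 of 9. Transcription factors had 2 higher and 4 lower of 14, then 1 and 3 of 12, and proteases 0 and 3 of 7, then 0 and 0 of 6. Cell cycle genes had 2 and 0 of 7, then 0 and 3 of 6 (Mki67, Top2a and Cenpf), and macrophage genes 4 and 1 of 10, then 0 and 1 of 10. Scavenger receptors had 4 and 1 of 9, then 1 and 1 of 8, Ly6c-high monocyte genes 0 and 4 of 5, then 0 and 3 of 5, growth factors 2 and 2 of 8, then 1 and 2 of 6, and interferon genes none of 7, then none of 5.

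Prg4 divided the members by some of their cavity genes. The counts rest on detection per cell. Prg4 was a rule gene, so a member without it had to hold 4 of the other 6, and the counts of rule genes on either side are not compared. Alox15 was detected in 6 of 15 Prg4+ members of P10-MI_vehicle and in 10 of 15 of P10-MI_SB225002, and in none of the 22 and 9 members without Prg4. Icam2 was detected in 9 of 15 against 3 of 22 members, and in 11 of 15 against 2 of 9. For Cd5l, which is outside the cavity list, the counts were 8 of 15 against 2 of 22, and 10 of 15 against 2 of 9. F5 was detected in 13 of 15 against 4 of 22 members, and in 9 of 15 against 1 of 9. Ltbp1 counts were 7 of 15 against 1 of 22, and 9 of 15 against 1 of 9. Selp counts were 5 of 15 against 1 of 22, and 5 of 15 against 1 of 9. Slpi, Gata6 and Naip1 were divided less or not at all. Slpi was detected in 9 of 15 against 11 of 22 members, with 38 against 300 UMIs, and in 9 of 15 against 5 of 9. Gata6 counts were 5 of 15 against 3 of 22, and 2 of 15 against 1 of 9. Naip1 counts were 2 of 15 against 0 of 22, and 1 of 15 against 2 of 9. Il1b was detected in 6 of 15 Prg4+ against 17 of 22 Prg4- members of P10-MI_vehicle, and in 0 of 15 against 3 of 9 of P10-MI_SB225002. Il1b was no rule gene, but Prg4- members passed on 4 of the other 6 rule genes, which include Cxcl3. The part of that choice in the Il1b counts was not tested. Depth was similar on either side of the split, with medians of 16100 and 13954 UMIs in P10-MI_vehicle and 9983 and 10050 in P10-MI_SB225002. The split followed C1q in part: 11 of 15 and 14 of 15 Prg4+ members were C1q-high, and 15 of 22 Prg4- members of P10-MI_vehicle were C1q-low. Counting 17 cavity genes without Saa3, the median member held 7 with Prg4 and 3 without in P10-MI_vehicle, and 8 and 3 in P10-MI_SB225002. At least 3 of the 17 were detected in 70.3% and 83.3% of members, in 9.50% and 14.3% of other C1q-high macrophages, and in 33.8% and 33.1% of Ly6c-high monocytes, whose depths differed. The sham member held 11 of the 17, with Alox15 at 820 CPM and Fabp7 at 578 CPM. C1q-low members were not without them: 10 of 18 held at least 3 (55.6%), against 15 of 17 C1q-high members of the same library (88.2%).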

How the data were processed

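Each of the 3 libraries was a table of UMI counts per gene and cell barcode, deposited by the authors as raw counts of 54752 genes. Per the labels and the submitters' processing notes, reads were handled against mm10 and cells with Seurat 4.1.0. The counting software and annotation are not given in the sources used here. Filtered cells had 500 to 30000 UMIs, 500 to 5000 genes and a mitochondrial share under 10%. Counts of the members and of the other classes were summed per library and scaled to 1000000 (CPM), with no count minimum other than 20 UMIs over both sums. Other C1q-high macrophages had at least 30 C1q UMIs per 10000, B cells at least 3 and endothelial cells at least 4 marker genes. Ly6c-high monocytes had at least 2 UMIs of Ly6c2 and 1 of Ccr2. These B cells, endothelial cells and monocytes also had C1q under 10 per 10000. Gpnmb Spp1 macrophages had at least 2 UMIs of Gpnmb, and Spp1 of at least 10 per 10000 UMIs. Shares have exact Clopper-Pearson intervals, their differences Newcombe intervals, CPM exact Poisson and ratios exact conditional intervals, all at 95%. A bound against 0 UMIs used a floor of 3 counts over the group.

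The genes named are the 7 rule genes, the 15 highest and 10 lowest ratios shared by both MI libraries and the 10 highest and 10 lowest ratios of SB225002 over vehicle, among genes of at least 100 CPM, and members of 32 gene lists. Some genes that this rule names are not reported here. Members and lists were chosen with earlier results of these data known. With 1 library per group there was no test. In total 23 alternatives were run, with TMM factors from edgeR 4.0.16 and size factors from DESeq2 1.42.0 in R 4.3.3. Other steps used Python 3.11.15, numpy 2.4.6, scipy 1.17.1, pandas 2.3.3 and matplotlib 3.10.9, and the ratio and interval code was tested on simulated data. Promoters were read from the RefSeq table.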

Additional observations from a re-analysis of the deposited data

Results flagged for a closer look

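In 4 genes the members stood above other C1q-high macrophages in P10-MI_vehicle and below them in P10-MI_SB225002. The log2 ratios, P10-MI_vehicle first, were 4.01 and -2.27 for Hp (haptoglobin), 2.93 and -1.52 for Ccl3, 2.41 and -1.13 for Ccl4, and 1.36 and -1.70 for Mmp12, a macrophage elastase. With 1 library per condition the difference was not tested. In Mmp12, 93.9% of the P10-MI_vehicle UMIs in members lay in 1 cell.

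Barcodes outside the filter also passed the gene rule. In P10-MI_vehicle they numbered 7 of 1057 (0.662%), of which 5 had over 30000 UMIs, 4 over 5000 genes and 2 a mitochondrial share of 10% or more. In sham it was 1 of 1038, with over 5000 genes, and in P10-MI_SB225002 0 of 1039.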

How the results depend on the processing

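P10-MI_SB225002 had the lower share of members of the MI libraries under each of the 13 alternatives, with 1 of them, at least 3 rule genes, near no difference (-0.0955 points). At least 3 rule genes gave shares of 1.82% in P10-MI_vehicle and 1.73% in P10-MI_SB225002. At least 5 gave 0.695% and 0.105%, with 0 in sham, 114 genes lower in members than in other C1q-high macrophages and 175 lower in P10-MI_SB225002 members. A mitochondrial limit of 5% gave 1.55% in P10-MI_vehicle. Leaving out each rule gene in turn gave shares of 0.724% to 0.955% in P10-MI_vehicle, 0.126% to 0.401% in P10-MI_SB225002 and 0 to 0.0425% in sham, 111 to 235 genes lower in members and 185 to 319 lower in P10-MI_SB225002 members. Arg1 left out gave the lowest of these in the MI libraries. Thinning to 2000 UMIs gave 0.518%, 0.171% and 0 in sham, with 82 genes higher and 66 lower in P10-MI_SB225002 members, since fewer UMIs enter. TMM scaling gave 224 higher and no minimum of UMIs 598 higher there. C1q-high members alone gave 190 and 212, from fewer genes. Means of log-normalized values gave 38 higher and 15 lower in members, and 32 higher and 41 lower in P10-MI_SB225002 members. Against Gpnmb Spp1 macrophages 87 genes were lower in members. Where no construction is named, the cause was not tested.

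Of 998 ratios of named genes against other macrophages 16 changed sign, and of 354 between the MI libraries 7. At least 3 rule genes did so in P10-MI_SB225002 for Camp (1.02), Ngp (0.88), Retnlg (0.12), BC100530 (0.78), Stfa2 (0.18) and Stfa2l1 (0.52), and at least 5 for Ccl12 (-0.12) and Ms4a7 (-0.27) between the libraries. Without cells of other lineages Stfa2 was at 0.66 in P10-MI_vehicle, and as a mean log-normalized value at 0.025. Leaving out Prg4 put Stfa1 at -0.43, Marco put S100a9 at -0.35 and Stfa1 at -0.09, Serpinb2 put S100a9 at -0.05 and Cxcl3 put S100a9 at -0.93, and over the genes left out the ranges were -0.93 to 5.56 for S100a9 and -0.43 to 5.64 for Stfa1, whose UMIs lay mostly in 1 cell each. Against Ly6c-high monocytes Fcrls (0.36), Hpgds (2.08) and Cbr2 (2.92) were higher in P10-MI_vehicle, and Fcrls (2.16), Hpgd (3.27), Hpgds (1.69) and Cbr2 (3.01) higher and F10 (-0.61) lower in P10-MI_SB225002. No paired analysis was possible because each condition was 1 library. Depth limits genes of few UMIs: the members held 499763 UMIs in P10-MI_vehicle and 227259 in P10-MI_SB225002, and the single sham member 20744.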
